A study of Arabidopsis thaliana with 20 samples.

Results

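The 10 single-copy plastid genes of the NDH complex were followed through 10 RNA-seq libraries of Arabidopsis thaliana rosettes. The members were taken by identifier, as ndhA, C, D, E, F, G, H, I, J and K, from a count table of 32744 genes that holds 133 chloroplast, 32548 nuclear and 63 mitochondrial genes. ndhB, which lies in the inverted repeat, was left out. All plants were wild type, of the Col-0 accession per the study. They were grown in soil on an automated platform for 19 days and, by the label N-limiting, watered with 2.5 mM nitrate. The series also lists 10 N-sufficient samples (5 mM nitrate), but each holds the same 32744 values as the N-limiting sample of the same number. The data are thus a single set of 10 libraries. Which nitrate level they came from cannot be seen from the values, and no nitrogen comparison could be made. The study describes them as 10 biological replicates grown under nitrogen deficiency, and the series text speaks of 5 replicates. The labels do not say whether each came from separate plants or a pool, so the p-values below measure the spread between these libraries, which may in part be technical.

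The NDH complex is a thylakoid membrane complex related to respiratory complex I. It takes electrons from reduced ferredoxin and passes them to plastoquinone, and so carries part of the cyclic electron flow around photosystem I. Its membrane arm is built of NdhA to NdhG, and its stromal arm holds NdhH to NdhK. Many further subunits and assembly factors are nuclear products. Plastid genes of this kind are transcribed together, and the long precursors are then cut, spliced and edited.

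In the reference chloroplast genome (TAIR10.1, RefSeq, 154478 bp, chromosome Pt), all 10 members lie on the minus strand. ndhC (50001-50363), ndhK (49257-49934) and ndhJ (48677-49153) follow each other with 66 and 103 bases between them. A second run holds ndhH (122011-123192), ndhA (119847-122009), ndhI (119244-119762), ndhG (118377-118907), ndhE (117804-118109) and, after psaC, ndhD (115665-117167). ndhF (110398-112638) lies apart from both. The runs are called the ndhC-K-J and ndhH-D units here, by gene order alone. Only ndhA is interrupted, by an intron of 1080 bases (120377-121456) between exons of 553 and 530 bases.

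The following features of these sequences bear on how counts are assigned. The first 30 bases of ndhE and ndhD are shown because ndhD alone of the 10 begins with ACG in the DNA, where RefSeq notes RNA editing, and the other 9 begin with ATG (first codon in capitals).
ndhE start, Pt:118080-118109: ATGatactcgaacatgtacttgttttgagt
ndhD start, Pt:117138-117167: ACGaatgattttccttggttaacaataatt
The junction of ndhH and ndhA is shown because a single base (capital) separates the stop codon of one from the start codon of the next, so that one read can cover both.
ndhH to ndhA, Pt:121986-122034: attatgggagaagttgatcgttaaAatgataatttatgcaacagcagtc
The edges of the ndhA intron are shown because a count over the whole gene would include unspliced RNA (exon in capitals).
ndhA first exon into intron, Pt:121433-121480: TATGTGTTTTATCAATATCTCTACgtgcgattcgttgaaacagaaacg
ndhA intron into last exon, Pt:120353-120400: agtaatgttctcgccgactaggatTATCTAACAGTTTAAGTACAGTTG
The last 39 bases of ndhF are shown because the ycf1 gene covers them on the opposite strand.
ndhF end, Pt:110398-110436: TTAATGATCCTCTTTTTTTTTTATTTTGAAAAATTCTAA

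The libraries held 41.4 to 60.3 M counts (M for 1e6, median 44.0 M), of which 63.9 to 72.4% fell on chloroplast genes. The members together took 1.08 ± 0.243% of the chloroplast counts (SD, n = 10), from 0.668% in replicate 3 to 1.46% in replicate 10. Markers of rosette leaves summed to 38100 to 55700 CPM (counts scaled to 1e6 nuclear counts per library), root markers to 22.3 to 53.2, and flower and seed markers to at most 0.208 and 0.163. Levels below are counts divided by size factors over the chloroplast genes (normalized counts). With 1 tissue and 1 condition, less RNA per cell and fewer cells or plastids cannot be told apart.

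Among the 3 genes of the ndhC-K-J unit, ndhC encodes a membrane subunit and ndhK and ndhJ encode stromal subunits, NdhK carrying an iron-sulfur cluster. ndhC (ATCG00440) ranged from 18636 normalized counts in replicate 3 through a median of 23583 to 29663 in replicate 10. ndhK (ATCG00430) ranged from 35040 in replicate 6 through 43640 to 50853 in replicate 10. ndhJ (ATCG00420) ranged from 28749 in replicate 9 through 33386 to 37755 in replicate 5. Replicate 10 was thus the highest for the first pair and replicates 3 and 6 were low in all 3 genes, but the range was narrow, with a highest-to-lowest fold of 1.59 for ndhC, 1.45 for ndhK and 1.31 for ndhJ.

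In the ndhH-D unit, the first gene was the weakest. ndhH (ATCG01110), which encodes a stromal subunit at the site where the arm meets the membrane, ranged from 4652 normalized counts in replicate 3 through 8420 to 9210 in replicate 10. ndhA (ATCG01100), a membrane subunit next to that site, ranged from 18024 in replicate 3 through 33976 to 41182 in replicate 10. ndhI (ATCG01090), whose product carries iron-sulfur clusters, ranged from 3925 in replicate 3 through 9459 to 12692 in replicate 10. Replicate 3 was the lowest library for all 3, and the next lowest was well above it, at 6414 for ndhH, 27162 for ndhA and 7071 for ndhI. The fold between the highest and lowest library was 1.98 for ndhH, 2.28 for ndhA and 3.23 for ndhI, and without replicate 3 it was 1.44, 1.52 and 1.79.

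The last 3 members of that unit encode membrane subunits, NdhD being one of the antiporter-like, proton-translocating ones. ndhG (ATCG01080) ranged from 24798 normalized counts in replicate 6 through 33575 to 40883 in replicate 10. ndhE (ATCG01070) ranged from 18050 in replicate 6 through 28137 to 31470 in replicate 7. ndhD (ATCG01050) had the highest count of all members, from 78523 in replicate 6 through 92951 to 105330 in replicate 7. For these 3 genes replicate 6 was the lowest library, in place of replicate 3, and ndhD had a highest-to-lowest fold of 1.34.

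ndhF (ATCG01010) encodes the other antiporter-like subunit among the members, at the far end of the membrane arm. It ranged from 14856 normalized counts in replicate 6 through 24630 to 36391 in replicate 10, a fold of 2.45. Replicate 3, at 14961, lay almost level with replicate 6. Some ndhF reads may have another origin, since 16.2% of its 31-base stretches also occur in the nuclear genome of the reference, against 3.89% or less for each other member.

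**Figure D1:**
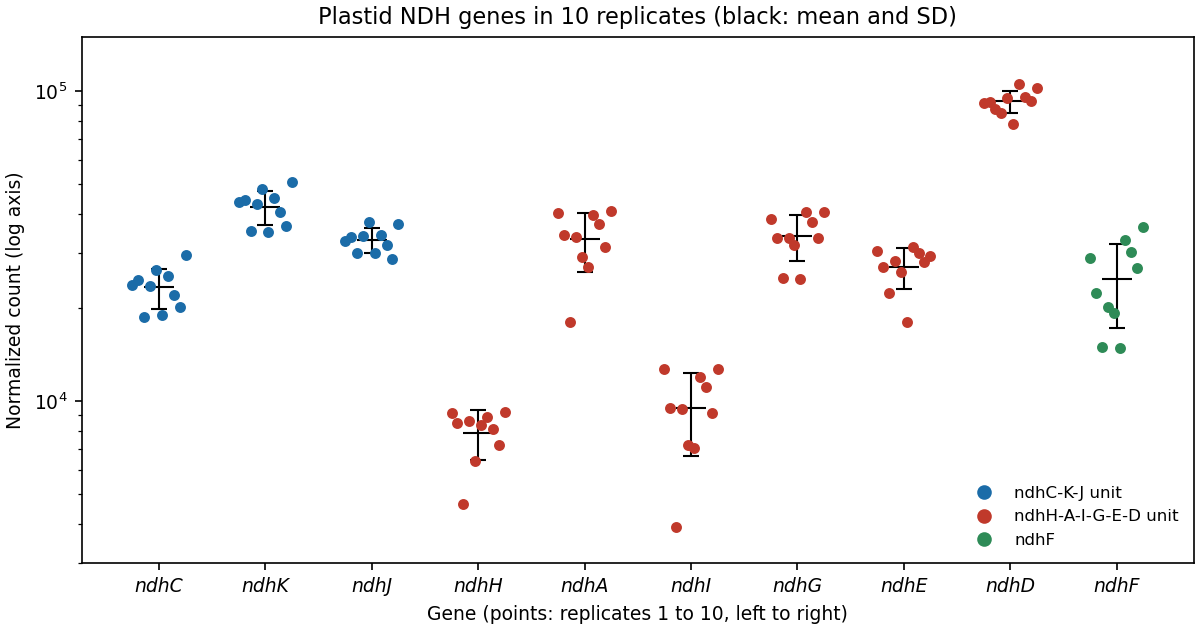
Normalized count (log axis) of each member in replicates 1 to 10, plotted left to right within a gene and coloured by unit, with the mean and SD in black. ndhD lies highest, from 78523 to 105330, and ndhI reaches lowest, to 3925 in replicate 3.

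Across members, replicate 3 was among the lowest 2 libraries for 8 of 10 genes and replicate 6 for 9 of 10. Replicate 10 was the highest library for 7 genes and among the highest 2 for 9, ndhE being the exception. The same ranks were not counted over the other chloroplast genes, so they are not shown to be particular to the members. Replicate 10 was also the deepest library. Replicates 3 and 6 had the highest chloroplast shares, at 72.35% and 71.65%. The relation of the members to both measures is given after the pairs.

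Expressed as a coefficient of variation (CV, the SD as a percentage of the mean), the spread was 8.49% for ndhD and 9.07% for ndhJ, 12.7% for ndhK, 14.9% for ndhC, 15.2% for ndhE, 17.0% for ndhG and 18.2% for ndhH. It reached 21.6% for ndhA, 29.7% for ndhI and 30.4% for ndhF. Counting error alone would give 0.323% (ndhD) to 1.10% (ndhH), so the spread exceeded counting error in each of the 10 members. The median CV of the 10 members was 16.1%, beside 14.4% over the 128 chloroplast rows averaging 100 or more counts, and 7 of the 10 members lay above that overall median. The value was scale dependent: it was 25.0% when libraries were scaled by their total chloroplast count. That total was weighted to few rows. ATCG00020 and ATCG00490 averaged 18278400 and 6889690 normalized counts, beside a median of 13474 over the 128 rows. Without replicate 3 the CV of ndhH was 11.1%, that of ndhA 14.6% and that of ndhI 21.4%, while ndhF stayed at 27.5%. Without replicate 6 the CV of ndhE was 9.88%.

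**Figure D2:**
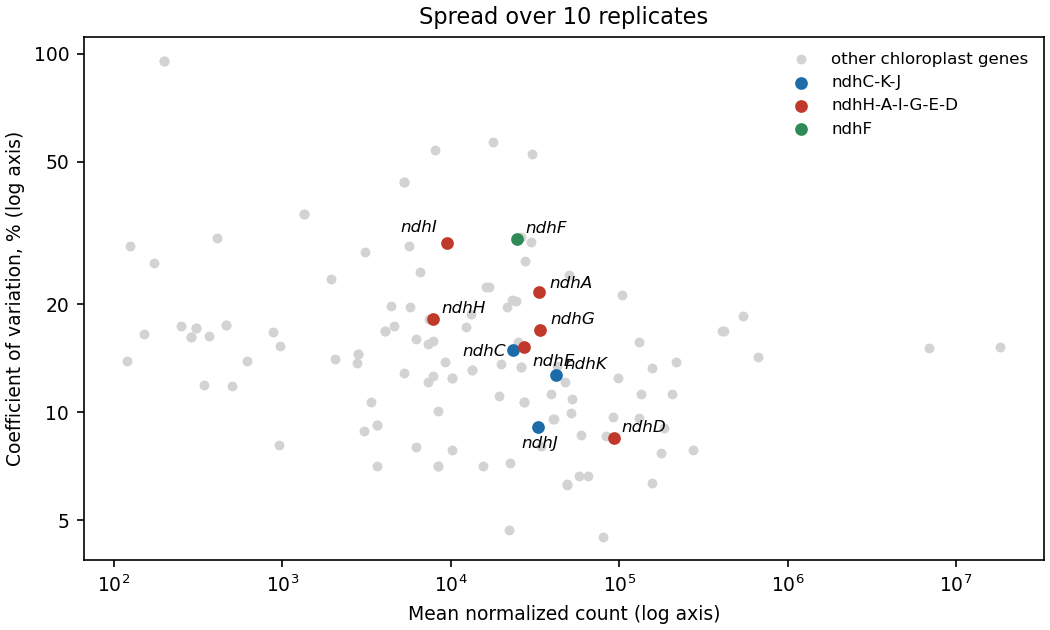
CV in percent against mean normalized count (both log axes) over the 10 libraries for 128 chloroplast genes, with the members coloured by unit. ndhF and ndhI, at 30.4% and 29.7%, lie in the upper part of the cloud, and ndhD and ndhJ, at 8.49% and 9.07%, in the lower part.

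Levels of different genes were compared as normalized counts per kb of exon. ndhE stood highest at 88654 ± 13490 per kb (SD, n = 10), followed by ndhJ at 69386 ± 6296. ndhC (64170 ± 9580), ndhG (64085 ± 10870), ndhK (62502 ± 7923) and ndhD (61681 ± 5234) formed a plateau. Below them came ndhA at 30704 ± 6637, ndhI at 18250 ± 5424, ndhF at 11021 ± 3355 and ndhH at 6686 ± 1214. The 9 steps of this order were each tested over the 10 libraries (exact two-sided permutation of signs, Benjamini-Hochberg adjusted over the 9, smallest possible p 0.00195). The order was set by these same levels, so the tests say only which neighbours are separated beyond their spread. Exon lengths ran from 306 bases (ndhE) to 2241 (ndhF), and reads crossing a gene's edge were not corrected for. An effect of gene length on the order was not tested, and the p-values do not cover it.

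ndhE exceeded ndhJ in 9 of 10 libraries by 0.34 on the log2 scale (exact permutation p = 0.00391, adjusted p = 0.00703), and ndhJ exceeded ndhC in 9 of 10 by 0.12 (exact permutation adjusted p = 0.0117). The 3 steps within the plateau were not separated: ndhC against ndhG differed by 0.01 ± 0.17 on the log2 scale (SD, exact permutation adjusted p = 0.893), ndhG against ndhK by 0.03 ± 0.18 (exact permutation adjusted p = 0.794) and ndhK against ndhD by 0.01 ± 0.14 (exact permutation adjusted p = 0.875). ndhD exceeded ndhA by 1.04, ndhA exceeded ndhI by 0.79 and ndhI exceeded ndhF by 0.72, each in 10 of 10 libraries (exact permutation adjusted p = 0.00586 for each). ndhF exceeded ndhH by 0.68 in 9 of 10 (exact permutation adjusted p = 0.00703). How introns were treated in counting was not given in the sources used here. With the length of its intron added, ndhA fell to 15373 ± 3323 per kb, and ndhI was then the higher of the pair by 0.21 in 9 of 10 libraries (exact permutation p = 0.00781), so the place of ndhA relative to ndhI depends on that length.

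Along the ndhH-D unit, among the members, the level was lowest at ndhH and highest at ndhE. psaC, between ndhE and ndhD, was not included in these steps. From ndhH to ndhA the level per kb of exon rose 4.56-fold (geometric mean), from 3.54 in replicate 6 to 5.02 in replicate 8, and by 2.28-fold on the whole length of ndhA. From ndhA to ndhI it changed by a factor of 0.580, or by 1.16 (higher in 9 of 10 libraries) on the whole length of ndhA. From ndhI to ndhG, across 336 bases, it rose 3.64-fold, from 2.98 in replicate 1 to 6.21 in replicate 3 (at most 4.32 in the other libraries). From ndhG to ndhE it rose 1.39-fold in 10 of 10 libraries, and from ndhE to ndhD it fell in 10 of 10, by a factor of 0.702. The ndhC-K-J unit was nearly flat, with a factor of 0.977 from ndhC to ndhK and 1.11 from ndhK to ndhJ. ATCG01060, whose identifier stands between those of ndhE and ndhD, had 84048 ± 7197 normalized counts, with r between -0.52 (ndhJ) and 0.46 (ndhE) against the members. It was given no level per kb, so this count does not compare with the levels per kb above.

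**Figure D3:**
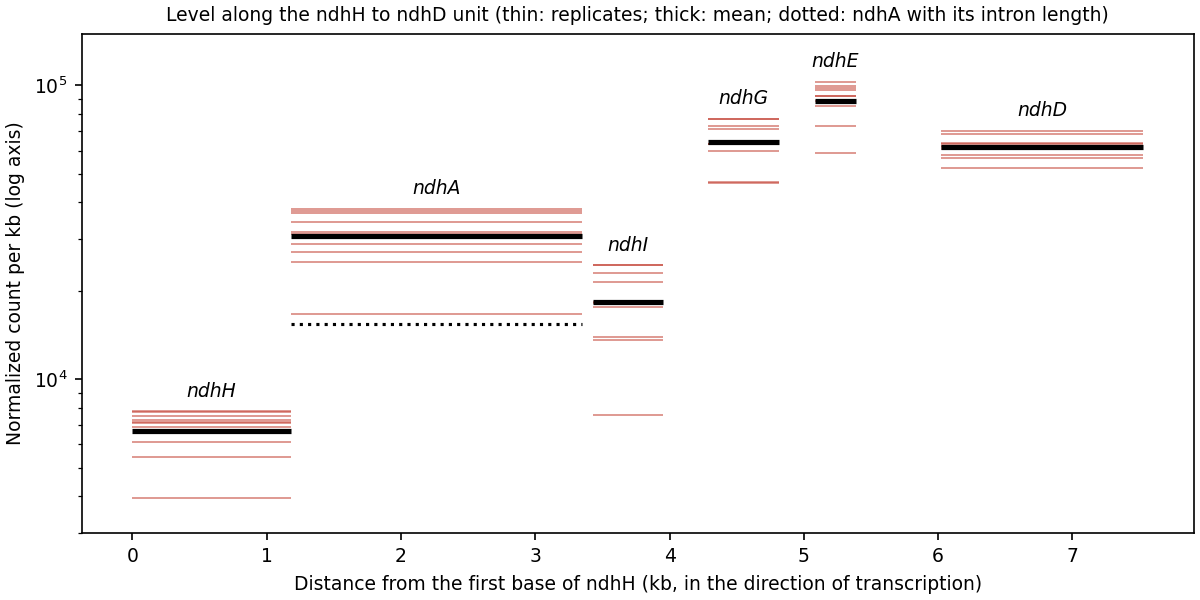
Normalized count per kb of exon (log axis) of the members of the ndhH-D unit, without psaC, against distance in kb from the first base of ndhH. Thin lines are the 10 libraries, thick lines the means and the dotted line ndhA with its intron length, and the means climb from 6686 at ndhH to 88654 at ndhE with lower levels at ndhI, on exon length, and at ndhD.

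How far the members moved together was asked with the Pearson correlation of log2 normalized counts over the 10 libraries, for all 8515 pairs of 131 chloroplast genes (two-sided permutation test, 100000 permutations, smallest p 1e-05, adjusted over the 8515). Of the 45 member pairs, 16 passed an adjusted p of 0.05, all with positive r. Over all 8515 pairs, 14.8% passed in either direction and 8.56% with positive r. All 45 member pairs had positive r, with a median of 0.675 and a range from 0.227 to 0.995, beside a median of -0.012 over all pairs. Of the 16, 11 passed with each single library left out in turn, and 11 passed without replicate 3. With replicates 3 and 10 both left out, 10 pairs passed, 8 of them among the 16, and 5 of the 45 pairs had negative r, while 1.84% of all pairs passed.

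Within the ndhC-K-J unit, 3 of 3 pairs passed, and 2 of 3 with replicates 3 and 10 left out. ndhC made up 52.8% of ndhK in replicate 3, 54.4% at the median and 58.3% in replicate 10. Their r was 0.992 (permutation p = 1e-05, adjusted p = 0.00194, rho = 0.988, permutation p = 1e-05) and 0.995 without replicates 3 and 10. ndhK and ndhJ had r = 0.952 (permutation p = 5e-05, adjusted p = 0.00334, rho = 0.915, permutation p = 0.00055). Without replicates 3 and 6 their r was 0.970, and without replicates 3 and 10 it was 0.941 (exact permutation adjusted p = 0.0508). The SD of the log2 ratio was 0.039 for ndhC over ndhK, the smallest of the 45 pairs.

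Within the ndhH-D unit, 8 of 15 pairs passed, and 6 of 15 with replicates 3 and 10 left out. ndhI made up 21.8% of ndhA in replicate 3, 28.6% at the median and 31.3% in replicate 1. Their r was 0.995 and they ranked the 10 libraries alike (permutation p = 1e-05, adjusted p = 0.00194, rho = 1.0, permutation p = 1e-05). Without replicates 3 and 6 it was 0.981. ndhG and ndhE had r = 0.932 (permutation p = 8e-05, adjusted p = 0.00494, rho = 0.879, permutation p = 0.00163), and 0.901 without replicates 3 and 6.

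The correlation of the ends of the unit depended on the scale. ndhH made up 5.32% of ndhD in replicate 3, 8.72% at the median and 10.7% in replicate 6. Their r was 0.227 (permutation p = 0.51, adjusted p = 0.656, rho = 0.236, permutation p = 0.514), and 0.214 without replicates 3 and 5. With total chloroplast count as the scale it was 0.781 (permutation adjusted p = 0.0272), when 29.1% of all pairs passed. ndhI made up 4.49% of ndhD in replicate 3 and 13.9% in replicate 1, a 3.08-fold range that was 1.82-fold without replicate 3. The SD of the log2 ratio to ndhH was 0.157 for ndhA, 0.276 for ndhI, 0.237 for ndhG, 0.302 for ndhE and 0.302 for ndhD. A trend along the unit was not tested. The ratio of ndhH to ndhG, to ndhE and to ndhD was in each case lowest in replicate 3 and highest in replicate 6. ndhH with ndhA (r = 0.901, permutation p = 0.00279, adjusted p = 0.0295, rho = 0.855, permutation p = 0.00275) had r = 0.603 without replicates 3 and 5 and 0.671 without replicate 3 alone. It also did not pass without replicate 1, 5, 9 or 10, though r was then 0.892 to 0.911. ndhH with ndhI did not pass without replicate 3 (r = 0.694) or without replicate 1, 5 or 10 (r from 0.895 to 0.902). ndhG with ndhD had r = 0.814, and 0.699 without replicate 6, the lowest. ndhE with ndhD had r = 0.791, and 0.574 without replicate 6. Neither passed without replicate 6, nor without replicate 2, 3, 7, 8, 9 or 10, where r was 0.778 to 0.858 for the first and 0.770 to 0.797 for the second.

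ndhF passed with 5 of the 9 other members, ndhA, ndhI, ndhG, ndhE and ndhD, though it lies outside their run. By Spearman 4 of the 9 passed, and with replicates 3 and 10 left out 2 of the 9 did, ndhG and ndhE. ndhF made up 59.8% of ndhG at the lowest, 70.9% at the median and 89.0% in replicate 10. Their r was 0.957 (permutation p = 2e-05, adjusted p = 0.0024, rho = 0.976, permutation p = 1e-05), and 0.926 without replicates 3 and 6. ndhD with ndhF (r = 0.834) did not pass without replicate 3, 6 or 10, where r was 0.854, 0.769 and 0.794. ndhC and ndhF had r = 0.627 (permutation p = 0.0553, adjusted p = 0.166, rho = 0.576, permutation p = 0.0885) and 0.287 without replicates 3 and 10.

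Between the ndhC-K-J and ndhH-D units, 0 of 18 pairs passed by Pearson permutation, with r from 0.315 to 0.747 and a median of 0.621. At an unadjusted p under 0.05, 9 of the 18 passed, and by Spearman correlation 0 passed after adjustment and 8 at an unadjusted p under 0.05. With total chloroplast count as the scale, 18 of the 18 passed, with r from 0.805 to 0.918, as did 44 of all 45 member pairs and 29.1% of the pairs of chloroplast genes. Whether r within a unit exceeded r between units was not tested, since the pairs share genes.

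**Figure D4:**
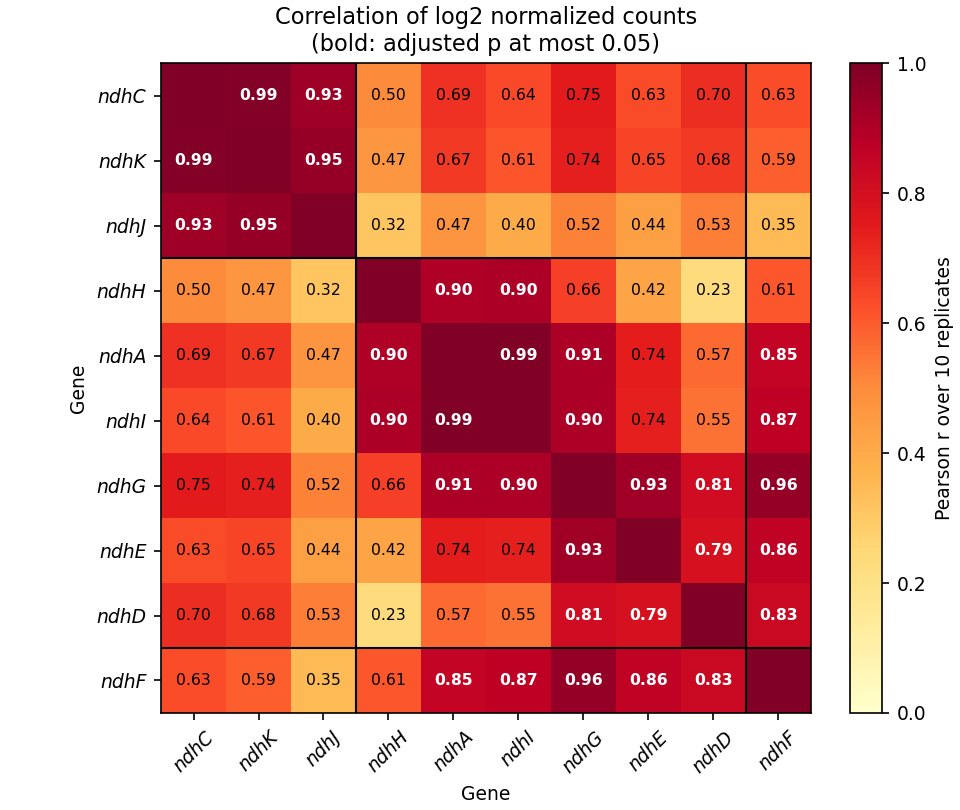
Pearson r of log2 normalized counts over 10 libraries for each pair of members, in genome order within units, on a colour scale from 0 to 1, with pairs at an adjusted p of at most 0.05 in bold. The ndhC-K-J block (0.934 to 0.992) and the block from ndhA to ndhG with ndhF are dark, and ndhH with ndhD, at 0.227, is the palest cell.

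In replicate 3 the members parted most. Relative to each gene's geometric mean, ndhI lay at -1.20 on the log2 scale, ndhA at -0.85 and ndhH at -0.74, while ndhG lay at -0.43, ndhE at -0.27 and ndhD at -0.08. ndhF lay at -0.66. In replicate 6 the pattern was another: ndhH lay at 0.11 while ndhE was at -0.57, ndhG at -0.44 and ndhF at -0.67. In replicate 5 the ndhC-K-J genes were at 0.20, 0.20 and 0.20, while ndhH was at -0.28, ndhI at -0.32 and ndhF at -0.30.

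**Figure D5:**
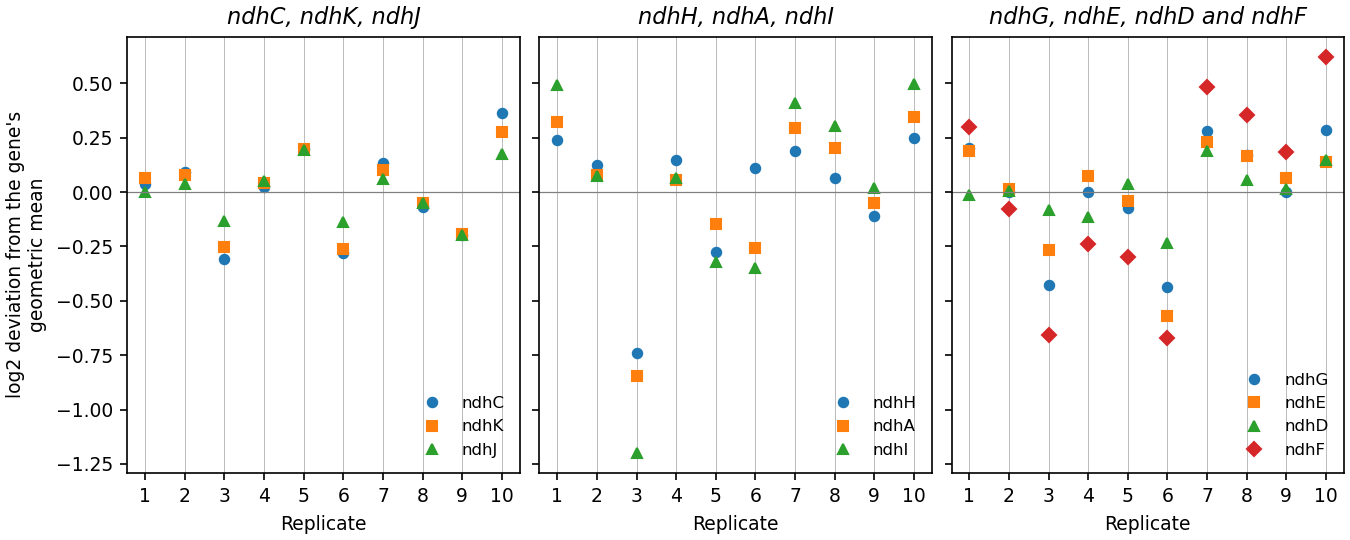
Deviation of each member from its own geometric mean (log2) in replicates 1 to 10, which have no order. ndhH, ndhA and ndhI drop furthest in replicate 3, to -1.20 for ndhI, and ndhE and ndhF drop in replicate 6, to -0.57 and -0.67.

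The members were next set against the total count and the chloroplast share of each library. No member passed with log2 total count (0 of 10 by Pearson permutation, 0% of the 131 chloroplast genes). At an unadjusted p under 0.05, 1 member passed by Pearson and 0 by Spearman, and none of the 10 passed by Spearman after adjustment. That member was ndhF, with r = 0.625 (permutation p = 0.0412, adjusted p = 0.458, rho = 0.564, permutation p = 0.0962). The relation rested on the deepest libraries, since r was 0.205 without replicates 7 and 10. With chloroplast share, all 10 members had negative r (8 of 10 with size factors over all genes, when 0 passed), and 4 passed, beside 32.8% of the 131 chloroplast genes in either direction and 17.6% with negative r. ndhI had r = -0.814 (permutation p = 0.00307, adjusted p = 0.0171, rho = -0.770, permutation p = 0.0131), ndhA -0.812 (permutation adjusted p = 0.0171), ndhG -0.791 (permutation adjusted p = 0.0262) and ndhE -0.761 (permutation adjusted p = 0.0324). Without replicates 1 and 3, r was -0.681 for ndhI, -0.703 for ndhA, -0.736 for ndhG and -0.782 for ndhE. Without replicate 3, 0 of 10 passed by Pearson permutation, with 4 at an unadjusted p under 0.05, and the share over the 131 genes was 6.87%. By Spearman 0 passed, with 4 at an unadjusted p under 0.05, beside 22.9% of the 131.

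Outside the members, the 3 chloroplast rows most like each unit's mean log2 level over the 10 libraries were named by r alone, and the table pairs their identifiers with no gene name. For the ndhC-K-J unit they were ATCG00640 (r = 0.958), ATCG00905 (r = 0.919) and ATCG01230 (r = 0.919). For the ndhH-D unit they were ATCG00530 (r = 0.983), ATCG00500 (r = 0.954) and ATCG01130 (r = 0.951). For ndhF they were ATCG00650 (r = 0.948), ATCG00530 (r = 0.938) and ATCG01120 (r = 0.933). ATCG00530, at 27553 normalized counts with a CV of 26.4%, thus appeared for both ndhF and the ndhH-D unit. ATCG00905 and ATCG01230 had near-equal means, at 13474.1 and 13473.5 normalized counts, with the same rho (0.891) and the same CV (13.09%). These rows thus cannot be taken as separate signals for the ndhC-K-J unit. Whether ATCG00905 and ATCG01230 were counted from the same reads was not tested.

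A list of 32 nuclear identifiers held genes for subunits, linkers, assembly and RNA factors of the complex, and 4 genes of other electron routes. The 31 with a gene name in the reference were kept. All 31 passed a mean of 10 counts, with a median CV of 12.95%, beside 15.5% over the 18255 nuclear genes tested. Highest per kb were PGR5-LIKE A, a component of the other cyclic route, at 4284 ± 404, and Lhca5, which links the complex to photosystem I, at 2297 ± 334 (nuclear scaling). Lowest were CRR4, needed for editing of the ndhD start codon, at 41.9 ± 8.82, and CRR2, an RNA processing factor, at 49.2 ± 12.3. CRR2 (CV 25.1%) and CRR6, an assembly factor (CV 24.2%), varied most.

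Of the 310 pairs of a member and a listed nuclear gene, 0 passed by Pearson permutation after adjustment over 182550 pairs, as did 0% of all of those. With 1e-05 as the smallest p, a call at that p needed at least 37 pairs to reach it, and 14 did. At an unadjusted p under 0.05, 58 of the 310 pairs passed (18.7%), beside 13.9% of all pairs. Over the 31 genes, 74.8% of the pairs had positive r with a median of 0.307, and over the 17 structural subunits 84.7% with a median of 0.372, beside 51.2% and 0.015 over all nuclear genes. SIG4, the sigma factor known for transcribing ndhF, was chosen for that role after these values were seen. It had r = 0.666 with ndhF (permutation p = 0.0254, adjusted p = 0.295, rho = 0.612, permutation p = 0.0663), and 0.186 without the 2 libraries farthest from its median.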

How the data were processed

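Total RNA of rosettes was depleted of ribosomal RNA and sequenced from stranded libraries, per the labels. The deposited values are gene counts, whole numbers per gene and library with no normalization, which the authors made with STAR, featureCounts (versions not given) and TAIR10, the names in the submitters' processing notes. Treatment of introns, overlaps and multiply mapping reads was not given in the sources used here. Whether reads shared by ndhF with nuclear copies were dropped, split or counted at each place was not tested. Some pairs of chloroplast rows had near-equal mean normalized counts, such as ATCG00890 at 49008.3 and ATCG01250 at 49009.4.

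Counts of the 10 distinct libraries were divided by DESeq2 1.42.0 median-of-ratios size factors over chloroplast genes (nuclear genes: over nuclear genes), with log2(value + 0.5) for correlations. No differential test was run. Rows averaging 10 or more counts were tested (131 chloroplast, 18255 nuclear), in Python 3.11.15 with scipy 1.17.1, by permutation with Benjamini-Hochberg adjustment. The code was tested on simulated data. Alternative scales were TMM factors (edgeR 4.0.16), size factors over all genes or without the members, and total chloroplast count. Other settings were a pseudocount of 8, every gene with at least 1 count, a mean of at least 100 counts, Spearman correlation and gene span. Also run were 1 gene of each pair with equal counts, and each library left out. Leaving out replicates 3 and 10 together, and the nuclear pairs, were chosen after seeing the data. The members and lists were chosen with earlier results of these data known. Named non-members were the 3 chloroplast rows most correlated with each unit's mean, and the 2 highest, 2 lowest and 2 most variable nuclear genes of the list. Sequences came from RefSeq TAIR10.1.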

Additional observations from a re-analysis of the deposited data

Results flagged for a closer look

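Replicate 10 held 60.3 M counts, against 50.2 M in the next deepest library and a median of 44.0 M. Its gap to the next library was 0.533 of the range, above Dixon's limit for 10 samples. It was the only one of 36 ends of 18 measures to pass, and chance passes about 1 in 20 groups. Replicate 10 was also the highest library for 7 of the 10 members after scaling. The part of depth in those levels was not tested beyond the correlations with total count given above.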

How the results depend on the processing

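The median CV of the members, 16.1%, was 25.0% with total chloroplast count as the scale and 12.7% with replicates 3 and 10 left out, and lay between 14.1% and 17.1% with single libraries left out. The 16 passing pairs became 44 with total chloroplast count (29.1% of all pairs passing) and 10 with replicates 3 and 10 left out, with 11 (without replicate 10) to 17 on leaving out single libraries. Spearman correlation gave 15, of which 13 were among the 16. Under each of the scalings 13 of the 16 passed. The 4 members passing with chloroplast share (32.8% of the 131 chloroplast genes) became 0 with size factors over all genes (30.5%), 0 by Spearman (22.9%), 10 with total chloroplast count (48.1%), 0 with replicates 3 and 10 left out (6.11%), and 0 (without replicate 3, 6.87%) to 5 with single libraries left out. Beside those counts of 0, 1, 4, 2 and 4 members had an unadjusted p under 0.05 (all-gene factors, Spearman, both libraries out, replicate 3 out). With total chloroplast count as the scale, that count divides each member and also enters the chloroplast share. Negative r is then partly built in, so the 10 passing there is not a separate check. Of the 9 steps in level, 5 (without replicate 5 or 10) to 6 passed. The correlation of ndhH with ndhD, 0.227, was 0.781 with total chloroplast count (adjusted p = 0.0272) and turned to -0.10 without replicates 3 and 10, that of ndhC with ndhF rose to 0.841 with total chloroplast count (adjusted p = 0.012), and the ndhA to ndhI difference turned to -0.21 with gene span. The causes were not tested, other than the intron length in the last. No paired analysis was possible because the samples that share a number hold the same counts. Depth limited no member, each having at least 3018 raw counts in each library, but 10 libraries of a single condition limit all correlations.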

Other observations

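Among the listed nuclear genes, CRR6, an assembly factor of the stromal arm, was the only one of the 31 with negative r against all 10 members, and 15 of the 31 had positive r with all 10. Of the 4 listed genes that act on plastid transcription or RNA, CRR2, CRR21 and SIG4 were among those 15, and CRR4 had positive r with 4 members. The members all had positive r with each other, so the signs against the 10 are not separate counts. How many nuclear genes outside the list had the same sign against all 10 was not counted. These sign counts thus do not set the list apart. The smallest adjusted p by Pearson permutation was 0.18 for CRR6, 0.167 for CRR2, 0.243 for CRR21, 0.206 for SIG4 and 0.646 for CRR4, so none of these passed. CRR1, another assembly factor, had the lowest CV of the list at 7.31%. These genes were singled out after their values were seen.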
